A study of Mus musculus with 4 samples.

Results

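Endocannabinoids are lipid messengers that neurons make on demand and that usually travel backwards across the synapse, from the receiving cell to the sending one, where they reduce transmitter release through the CB1 receptor. The main brain endocannabinoids are 2-arachidonoylglycerol (2-AG) and anandamide, and each has its own enzymes of synthesis and breakdown. The 7 genes described here cover that cycle: the receptor gene Cnr1, the synthesis genes Dagla, Daglb and Napepld, and the breakdown genes Mgll, Abhd6 and Faah. They were chosen by name, and all 7 were found among the 31735 gene rows present in every table.

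The 4 libraries hold ribosome-bound RNA of the rostral pons of adult, untreated control mice of the Cbln2-TRAP line NIDA172, titled Cbln2-EGFP-Rpl10a. Translating ribosome affinity purification (TRAP) uses antibodies against EGFP to pull down ribosomes that carry the tagged protein L10a. The gene named in the line, Cbln2 (cerebellin 2), was at 239, 110, 126 and 65.7 CPM (counts per 1000000 gene counts of a library) in replicates 1 to 4. All libraries are of the immunopurified fraction, so there is 1 group, and neither unpurified tissue nor an untagged line was analysed here. Levels therefore do not say which genes the tagged cells hold more of than their neighbours, and fewer cells of a type and less RNA per cell cannot be told apart.

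The libraries held 12731825 to 21140265 gene counts, and 1 count was worth 0.0473 to 0.0785 CPM. The descriptions number replicates 1 and 2 as 1666 and 1667, and replicates 3 and 4 as 2469 and 2470, and these are called the first and the second library pair. The labels name no batch, and they do not say whether replicates came from separate mice. SDs and standard errors therefore measure the spread between libraries, which may be technical. Poisson intervals of single libraries cover counting error only. Rn45s, the row of precursor ribosomal RNA, took 24.2% of the gene counts of replicate 3 and 1.61% to 9.29% of the others, which lowers the CPM of every other gene there. All 8 neuronal marker genes checked reached 1 CPM in every library, with summed levels of 25437, 22836, 11606 and 12670.2 CPM in replicates 1 to 4. Markers of other cells were present too, with sums of 446 to 1999.7 CPM for 7 astrocyte genes, 413 to 2378 for 7 oligodendrocyte genes, 189 to 1539 for 8 genes of cerebellar granule cells and 757 to 2656 for 7 of Purkinje cells. Sums were 115 to 250.4 CPM for 6 endothelial genes, 43.3 to 107 for 5 mural and leptomeningeal genes, 18.6 to 98.7 for 5 oligodendrocyte precursor genes, 3.69 to 129 for 5 ependymal and choroid plexus genes and 3.73 to 43.2 for 7 microglia genes. Of the defining markers, Opalin (oligodendrocytes), Tmem119, C1qa and Aif1 (microglia), Cldn5 (endothelium) and Ttr, Ccdc153, Tmem212 and Kl (ependyma and choroid plexus) were at 0 counts in at least 1 library.

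All 7 endocannabinoid genes reached 1 CPM in all 4 libraries, as did 33.5% of all gene rows. Together they held 182, 206, 132 and 251 CPM in replicates 1 to 4. The receptor gene Cnr1 and the synthesis genes Dagla and Napepld had the highest means, of 67.4, 48.7 and 33.7 CPM, while the breakdown genes Abhd6, Mgll and Faah and the synthesis gene Daglb lay between 7.36 and 15.5 CPM. The highest library exceeded the lowest 2.18-fold for Napepld and 10.8-fold for Faah, with the other 5 genes between.

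Cnr1 (ENSMUSG00000044288.6, chromosome 4, 33924593 to 33948831, plus strand, GRCm38) encodes the CB1 receptor, a receptor coupled to inhibitory G proteins on axon terminals. It was at 70.7, 85.7, 27.6 and 85.5 CPM in replicates 1 to 4, or 67.4 ± 27.5 CPM (SD, n = 4). Replicate 3 was low and the other libraries lay close together. In replicate 3 the Rn45s share was at its highest. Replicate 3 was also the lowest library for 6 of 7 astrocyte, 5 of 7 oligodendrocyte and 7 of 8 granule cell markers. It was lowest for 4 of 8 neuronal, 3 of 5 mural and leptomeningeal, 3 of 7 Purkinje cell and 3 of 7 microglia markers. For oligodendrocyte precursors, endothelium, and ependyma and choroid plexus it was lowest for 2 of 5, 1 of 6 and 1 of 5. The share of all genes that were lowest in replicate 3 was not counted. With Rn45s left out of the library totals Cnr1 was at 71.9, 87.1, 36.4 and 94.3 CPM, so replicate 3 remained the lowest. The part of these markers in the low value was not tested.

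Dagla (ENSMUSG00000035735.10, chromosome 19, 10245265 to 10304877, minus strand) encodes diacylglycerol lipase alpha, which makes most of the 2-AG of adult brain synapses. It was at 12.6, 51.5, 35.3 and 95.5 CPM in replicates 1 to 4, or 48.7 ± 35.0 CPM (SD, n = 4). Replicate 4 was 7.56 times replicate 1, and each library pair held a lower and a higher library. Daglb (ENSMUSG00000039206.13, chromosome 5, 143464584 to 143505942, plus strand) encodes the related lipase DAGL beta, best known from microglia and macrophages. It was at 12.3, 2.70, 8.80 and 5.62 CPM, or 7.36 ± 4.15 CPM. The counts of Dagla and Daglb, not divided by length, were equal in replicate 1 within counting error, at 267 and 261. Per kilobase of exon Dagla was the higher there, at 2.20 CPM against 1.29. In the other libraries Dagla was the higher either way. The 7 microglia markers summed to 21.4, 3.73, 7.62 and 43.2 CPM in replicates 1 to 4, and 1 of them reached 1 CPM in all 4 libraries. Exons of Daglb share 2309 bases with the gene Rac1 on the opposite strand, and no source used here states the strand setting, so the Daglb count is uncertain.

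Napepld (ENSMUSG00000044968.16, chromosome 5, 21662901 to 21701396, minus strand) encodes the phospholipase D that releases anandamide and related lipids from their membrane precursors. It was at 52.5, 28.5, 24.1 and 29.8 CPM in replicates 1 to 4, or 33.7 ± 12.7 CPM (SD, n = 4). Replicate 1 was high, and the other 3 libraries lay within 24.1 to 29.8 CPM. It was the steadiest of the 7 genes, with an SD of 0.48 in log2(CPM + 0.5), above that of 29.1% of the 10632 genes that reached 1 CPM in all 4 libraries.

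Mgll (ENSMUSG00000033174.17, chromosome 6, 88724412 to 88828360, plus strand) encodes monoacylglycerol lipase, the main enzyme that breaks down 2-AG, found in axon terminals and in astrocytes. It was at 6.53, 2.25, 14.6 and 22.6 CPM in replicates 1 to 4, or 11.5 ± 9.00 CPM (SD, n = 4). Both libraries of the second pair lay above both of the first. The lowest value rests on 35 counts (95% exact Poisson interval 1.57 to 3.13 CPM, for counting error only). An antisense gene, Gm26588, shares 167 exon bases with Mgll, and how reads over these bases were counted is not known. Abhd6 (ENSMUSG00000025277.14, chromosome 14, 8002902 to 8056763, plus strand) encodes a membrane lipase that breaks down 2-AG in the receiving neuron, near its site of synthesis. It was at 8.04, 25.8, 17.9 and 10.4 CPM, or 15.5 ± 8.03 CPM. Replicates 2 and 3 were high and replicates 1 and 4 low, so the library pairs overlapped.

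Faah (ENSMUSG00000034171.13, chromosome 4, 115967145 to 116017926, minus strand) encodes fatty acid amide hydrolase, which breaks down anandamide. It was at 19.1, 9.51, 4.08 and 1.76 CPM in replicates 1 to 4, or 8.61 ± 7.69 CPM (SD, n = 4), and 5.12 CPM on average without replicate 1. Both libraries of the second pair lay below both of the first. The lowest value rests on 27 counts (95% exact Poisson interval 1.16 to 2.56 CPM). That interval does not reach the next lowest, of 3.05 to 5.36 CPM in replicate 3, but both cover counting error only. Faah and Mgll had the widest spreads among the 7 genes, with SDs of 1.35 in log2(CPM + 0.5) that exceeded those of 92.5% and 92.4% of the genes detected throughout. Dagla followed with an SD of 1.20, above 87.7% of these genes.

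**Figure D1:**
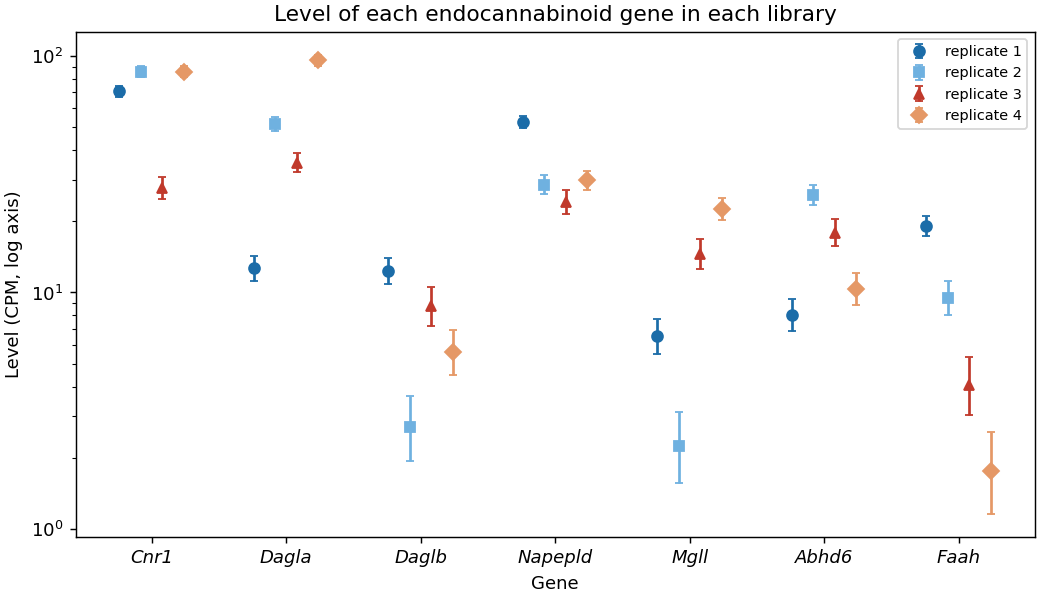
Level of each of the 7 genes in CPM on a log axis, by library, with 95% exact Poisson intervals that cover counting error only. Mgll is higher and Faah lower in both libraries of the second pair (replicates 3 and 4), and Cnr1 is low in replicate 3.

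For comparisons between genes, the CPM of each gene was divided by its total exon length in kilobases (kb), 2.37 kb for Abhd6 to 9.57 kb for Daglb. The mean level per kb was at least 6.57 for 4 genes and at most 2.26 for the other 3. The first were Cnr1 at 10.5 ± 4.26 CPM per kb (SD, n = 4), Napepld at 8.53 ± 3.22, Dagla at 8.48 ± 6.09 and Abhd6 at 6.57 ± 3.39. The others were Mgll at 2.26 ± 1.77, Faah at 1.10 ± 0.982 and Daglb at 0.770 ± 0.434. Among 10131 genes with a known length that reached 1 CPM in all libraries, Cnr1 lay at the 64.0th percentile of the level per kb, Napepld and Dagla at the 57.9th and 57.8th, and Abhd6 at the 49.5th. Mgll lay at the 18.0th, Faah at the 5.56th and Daglb at the 2.72nd percentile.

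**Figure D2:**
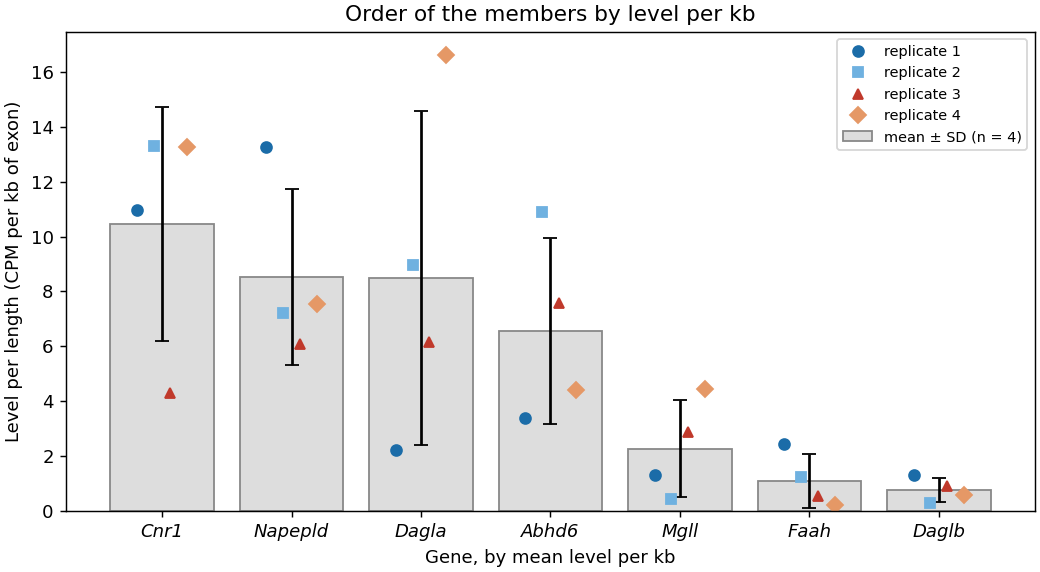
Level per kb of exon for the 7 genes, ordered by the mean. Bars and lines give the mean ± SD of 4 libraries and points give the libraries. The 3 genes on the right have means of 0.770 to 2.26 CPM per kb, and the 4 on the left 6.57 to 10.5.

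The leading gene changed from library to library. Per kb it was Napepld in replicate 1, Cnr1 in replicate 2, Abhd6 in replicate 3 and Dagla in replicate 4. The lowest gene was Mgll in replicate 1, Daglb in replicate 2 and Faah in replicates 3 and 4. As plain ratios of CPM per kb, with no value added, the highest member exceeded the lowest 10.3-fold, 47.1-fold, 14.5-fold and 73.9-fold in replicates 1 to 4.

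Ratios between the genes were taken within each library as a log2 ratio of CPM per kb, with 0.5 added to each value. Folds given with these ratios are their mean log2 turned back, so they include the 0.5. Faah, Daglb and Mgll fell to 0.225, 0.282 and 0.443 CPM per kb in their lowest libraries. The 0.5 therefore makes folds over these genes smaller than plain ratios of their levels. Of the 21 possible ratios, 10 had the same direction in 4 of 4 libraries, and 5 of these also had a mean above 2 SD. The exact two-sided sign-flip permutation test has 16 sign patterns with 4 libraries, so its smallest p is 0.125, and it cannot reach 0.05. That p, 0.262 after adjustment over 21 pairs, holds for each of the 10 ratios. No neighbours in the order of levels differed by more than their spread. From the top, log2 ratios were 0.22 ± 0.68 for Cnr1 to Napepld, 0.24 ± 1.48 for Napepld to Dagla and 0.18 ± 1.09 for Dagla to Abhd6. They were 1.49 ± 1.52 for Abhd6 to Mgll, 0.73 ± 1.81 for Mgll to Faah and 0.20 ± 0.86 for Faah to Daglb.

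With the 0.5 added, the receptor gene exceeded Daglb 8.33-fold (log2 3.06 ± 1.06, SD, n = 4) and Faah 7.27-fold (log2 2.86 ± 1.02), both in 4 of 4 libraries. Against Mgll it was higher in 4 of 4 libraries as well, with log2 ratios of 2.68, 3.87, 0.50 and 1.48, but the mean of 2.13 ± 1.46 was under 2 SD. Against Dagla, the gene of the enzyme that makes its main ligand, Cnr1 was higher in the first pair (log2 2.09 and 0.54) and lower in the second (-0.48 and -0.31). The ratio of receptor to ligand synthesis was thus within its spread (0.46 ± 1.17).

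For the anandamide branch, the synthesis gene exceeded the breakdown gene in every library. With the 0.5 added, Napepld was 6.24 times Faah (log2 2.64 ± 0.60, SD, n = 4), with 2.23, 2.17, 2.69 and 3.47 in replicates 1 to 4, above 0 in 4 of 4. The size of the mean log2 ratio depended on the value added, at 3.19 with 0.1 and 2.24 with 1. This ratio and that of Napepld to Daglb (7.15-fold, log2 2.84 ± 0.45) had the smallest spreads of the 5 ratios above 2 SD. In the first and second library pairs the mean log2 ratio of Napepld to Faah was 2.20 and 3.08.

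For the 2-AG branch, Dagla exceeded Mgll in 4 of 4 libraries with log2 ratios of 0.60, 3.33, 0.98 and 1.79, a mean of 1.67 ± 1.21 (SD, n = 4) that was under 2 SD. Between the synthesis genes, Dagla made up 63.0%, 96.9%, 87.0% and 96.6% of the summed level per kb of Dagla and Daglb. Its log2 ratio to Daglb was positive in 4 of 4 libraries, with a mean of 2.60 ± 1.53 that did not reach 2 SD. Replicate 1 was the lowest, at 0.59, and the mean without it was 3.27, above 2 SD. Between the breakdown genes, Mgll made up 27.4%, 3.91%, 27.5% and 50.3% of the summed level per kb of Mgll and Abhd6. Abhd6 exceeded Mgll in 3 of 4 libraries and was level with it in replicate 4 (log2 -0.02). Abhd6 also exceeded Daglb 5.34-fold (log2 2.42 ± 1.13), in 4 of 4 libraries. That call ended without the division by length (log2 1.07) and when the longest annotated transcript gave the length (1.87), which is 4.88 kb for Daglb against 9.57 kb of exons in all. It also ended without replicate 3 (2.39) or replicate 4 (2.50).

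**Figure D3:**
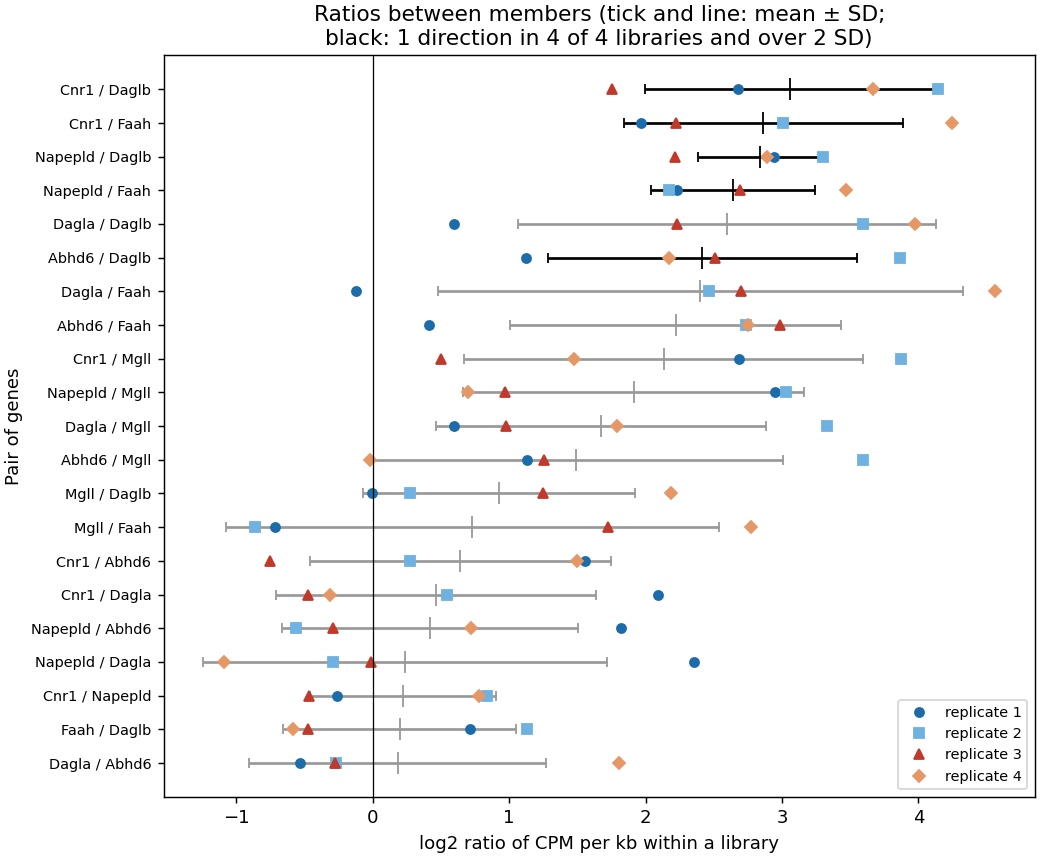
Log2 ratio of CPM per kb within each library for the 21 pairs of genes. Ticks and lines give the mean ± SD of 4 libraries and points give the libraries. The 5 black ratios go 1 way in 4 of 4 libraries and exceed 2 SD, and the ratio of Mgll to Faah lies below 0 in replicates 1 and 2 and above 0 in replicates 3 and 4.

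The library pairs were compared to see how far the replicates of this 1 group differ in these genes. No treatment separates them. By edgeR's quasi-likelihood test 1.27% of 13905 tested genes differed at a Benjamini-Hochberg adjusted p under 0.05. None of the 7 members did, and none had an unadjusted p under 0.05, as 16.8% of all tested genes had. DESeq2 also called none, with 2, Mgll and Faah, at an unadjusted p under 0.05, beside 17.8% of all genes it tested. The median log2 change of the members was -0.22, beside -0.03 for all tested genes.

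Mgll and Faah had the largest estimated changes, in opposite directions. Mgll averaged 4.39 CPM in replicates 1 and 2 and 18.6 CPM in replicates 3 and 4, a log2 change of 2.08 (SE 0.99, edgeR adjusted p = 0.317). Faah had means of 14.3 and 2.92 CPM, a log2 change of -2.22 (SE 1.13, edgeR adjusted p = 0.353). These were the 2 members whose library pairs did not overlap, 1 in each direction. Of all tested genes 47.5% did not overlap, 23.7% being higher and 23.8% lower in the second pair. The log2 change was 0.99 (SE 0.68) for Dagla, -0.51 (0.52) for Cnr1, -0.57 (0.59) for Napepld, -0.22 (0.87) for Abhd6 and -0.01 (1.18) for Daglb, with edgeR adjusted p from 0.518 to 0.998. Without replicate 2 Dagla passed the test, with a log2 change of 2.37 and an edgeR adjusted p of 0.0384, which ranged up to 0.959 over the other alternatives.

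Some marker sums also differed between the library pairs. The gene counts given with them have to be read beside all tested genes, of which 47.5% did not overlap (23.7% up, 23.8% down). No list was tested against that share, and only the granule cell list had all its genes on the same side. Differences in these sums therefore do not show that the share of a cell type differed. The granule cell sum was 639 and 1539 CPM in replicates 1 and 2 and 189 and 320.3 in replicates 3 and 4, and all 8 genes of that list were lower in the second pair. The Purkinje cell sum was 1509 and 2656 CPM against 757 and 840.5, but its genes did not move together: 3 were lower in the second pair, among them Itpr1 and Car8, 2 overlapped, and 2 were higher, Pcp2 (1.09 and 3.60 against 5.66 and 11.6 CPM) and Calb1 (166 and 158 against 283 and 184). The neuronal sum, of which Snap25 is the largest part, was lower in the second pair too, with 3 of its 8 genes lower, 4 overlapping and Eno2 higher. The mural and leptomeningeal sum was 78.5 and 43.3 CPM against 107 and 107 (2 of 5 genes higher, 1 lower, 2 overlapping). For endothelium it was 164 and 250 against 123 and 115 (2 of 6 genes lower, 4 overlapping). For ependyma and choroid plexus it was 3.69 and 6.88 against 7.38 and 129 (2 of 5 genes higher, 3 overlapping). The oligodendrocyte, oligodendrocyte precursor and microglia sums overlapped between the pairs. The astrocyte sum, of a cell type known to hold Mgll, was 1218 and 1428 CPM against 446 and 1999.7, so the pairs overlapped. The part of these cells in the values of Mgll and Faah was not tested.

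**Figure D4:**
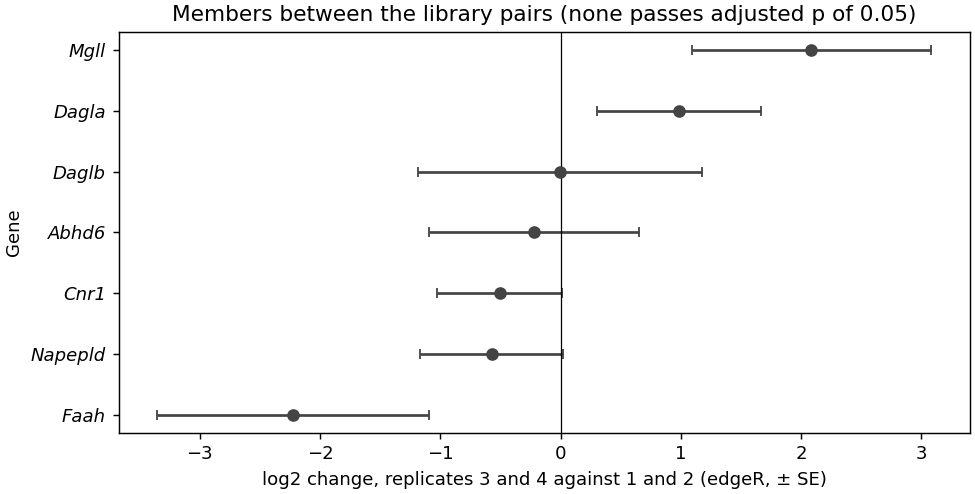
Log2 change of the 7 genes in the second library pair (replicates 3 and 4) against the first (replicates 1 and 2), with the standard error. Mgll at 2.08 and Faah at -2.22 lie farthest from 0, and no member passes the threshold.

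Because the libraries differ, the pattern of each gene over the 4 libraries was compared with that of all genes of at least 10 CPM on average (8846 of them, the gene itself aside, or 8847 for Daglb and Faah). Likeness was the root mean square difference of log2(CPM + 0.5) after each gene was centred on its own mean. The closest genes were Spock1 (0.0378) and Nwd1 (0.0487) for Cnr1, and Gpr165 (0.0391) and Wdyhv1 (0.0578) for Napepld. Spock1 was at 249, 287, 98.4 and 286 CPM, lowest in replicate 3 like Cnr1, and it was picked for this likeness of pattern. For Dagla they were 4921504A21Rik (0.0810) and Atp9b (0.0895), for Daglb Inafm1 (0.102) and Tmem175 (0.108), and for Abhd6 Secisbp2 (0.0968) and Plrg1 (0.0983). For Mgll they were Stk11 (0.0875) and Abcf2 (0.0990), and for Faah Pdgfa (0.117) and Upf3b (0.127). No member was among the 2 closest genes of another member, but Daglb and Faah, under 10 CPM on average, were not candidates. With so many candidates and only 4 libraries, a place among the closest was unlikely for any given gene. How close genes come by chance was not tested. The most alike members were Cnr1 and Napepld, at 0.620, and the least alike were Mgll and Faah, at 2.19.

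The wider pathway was described from 7 lists of 53 genes, of which 34 reached 1 CPM in all 4 libraries and 3 (Gpr119, Trpv1 and Alox15) had no count in any library, where 0 counts are compatible with levels of up to 0.142 to 0.236 CPM. None of the 7 other receptor genes reached 1 CPM in all libraries. Cnr2, which encodes the CB2 receptor of immune cells, had 1 count in replicate 1 and 0 in the others. Gpr55, a receptor for lysophospholipids, was at 0.378, 5.21, 0.471 and 0.326 CPM, and Ppara, a nuclear receptor for fatty acids and their amides, at 1.70, 2.44, 0.393 and 3.98. Replicate 2, the library high in Gpr55, had the highest sums of granule cell, Purkinje cell and endothelial markers. Sums of microglia and of mural and leptomeningeal markers were lowest there, at 3.73 and 43.3 CPM. The other marker sums were neither highest nor lowest in it. Within the lists with their highest sum there, Zic2, Pcp2, Calb1, Flt1, Tek and Cldn5 peaked in other libraries. The part of any of these cells was not tested.

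All 3 genes of proteins that bind the CB1 receptor reached 1 CPM in all libraries. Gprasp1, which encodes a sorting protein that directs receptors to lysosomes, was at 139 CPM per kb on average and Sgip1, which encodes an endocytic protein that slows CB1 internalization, at 48.2, beside 10.5 for Cnr1. The third, Cnrip1, which encodes a protein that binds the tail of the receptor, was at 14.0 ± 6.06 CPM per kb (SD, n = 4), close to Cnr1. All 11 genes of the effector list reached 1 CPM in all libraries. The inhibitory G protein genes Gnai1 and Gnao1 led it, at 204 and 153 CPM per kb on average.

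A list of 13 genes upstream of the DAGL enzymes holds receptors, G proteins and phospholipases that supply diacylglycerol, and regulators of DAGL alpha. It was led by Plcb4 (phospholipase C beta 4) at 69.2 CPM per kb on average and Camk2a, a kinase known to inhibit DAGL alpha, at 62.7. The 1 CPM level was reached in every library by 11 of the 13. Among enzymes of the other routes to anandamide, Gdpd1 and Gde1 led with 24.0 and 13.7 CPM per kb, and 5 of 9 reached 1 CPM in all libraries. Among the other breakdown enzymes only Abhd12, a membrane lipase of 2-AG and of lysophosphatidylserine, did so, out of 6. Abhd12 was at 49.5, 44.6, 23.2 and 45.0 CPM per kb in replicates 1 to 4, above each of the 7 members in every library, while Naaa, an acid amidase of lysosomes, was at 1.62 on average. The lipid carrier genes Fabp3 and Fabp5, which encode fatty acid binding proteins, were at 21.3 and 9.39 CPM per kb, and 3 of 4 carriers reached 1 CPM in all libraries.

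**Figure D5:**
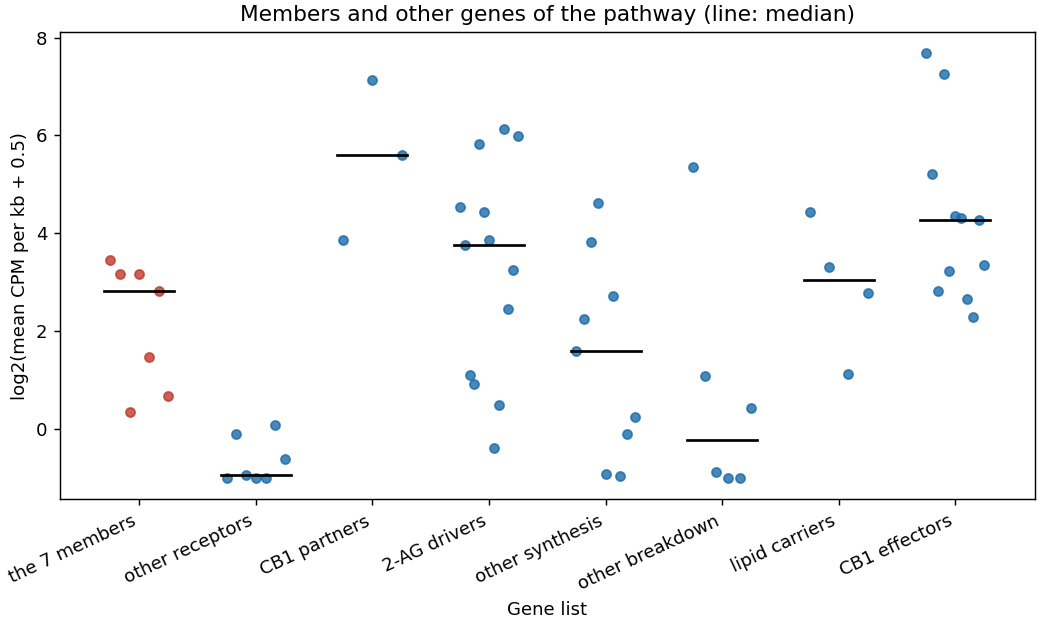
Mean level of each gene as log2(CPM per kb + 0.5) for the 7 members and 7 lists of other pathway genes, with the median of each list as a line. The medians of the CB1 partners, the CB1 effectors, the genes upstream of the DAGL enzymes (2-AG drivers) and the lipid carriers lie above that of the members. Single effectors, drivers and carriers lie among the members, and the other receptors have the lowest median.

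Between the library pairs 41 of the 53 pathway genes could be tested. Of these 0 were higher and 1 was lower in the second pair, with a median log2 change of -0.09 beside -0.03 for all tested genes, of which 0.712% were called higher and 0.554% lower. The gene was Plcb4, at 672 and 1227 CPM in replicates 1 and 2 and 276 and 309 in replicates 3 and 4 (log2 change -1.69, SE 0.35, edgeR adjusted p = 0.0386). Plcb4 is known from Purkinje cells, whose marker sum was also lower in the second pair although Pcp2 and Calb1 were higher there, and their part was not tested. Without replicate 2, which left a lone library in the first pair, Plcb4 was not called and its log2 change was -1.16.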

How the data were processed

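The authors deposited 1 table of raw counts per library, with 1 row per gene symbol, for 4 libraries of 1 group. Per the submitters' processing notes, STAR 2.0.0e, HTSeq and mm10 were used. No source used here states the annotation or the counting options. HTSeq summary rows and a row named unknown (0 counts) were left out of totals. Reads outside features made up 24.0% to 30.1% of a library, multiply aligned reads 28.6% to 37.2% and ambiguous reads 1.25% to 2.07%. CPM used all gene rows of a library. Exon lengths and positions came from GENCODE M21 (GRCm38, the assembly of mm10). No pair of libraries was close to sampling noise (chi-square per degree of freedom at least 153). The library titled replicate 4 has a description that ends like that of replicate 3, and the title was followed.

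Library pairs were compared over the 31735 shared rows with edgeR 4.0.16 (quasi-likelihood F test after TMM scaling and filterByExpr, SE as the log2 change over the square root of F), checked on simulated data. The 796 and 922 rows found in the tables of 1 pair only were left out. DESeq2 1.42.0 was an alternative. SciPy 1.17.1 gave the permutation tests. Members and gene lists were chosen with earlier results of these data known. Genes named besides the members were the 2 highest per kb of each pathway list, those past the edgeR threshold, and the 2 most alike to each member. Named outside that rule, after their values were seen, were genes at or near 0 counts (Cnr2, Gpr119, Trpv1, Alox15). Cnrip1 and single marker genes were also named outside that rule. Protein sequences were not used here.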

Additional observations from a re-analysis of the deposited data

Results flagged for a closer look

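Of the 7 results given here, 4 were picked because 1 of the 4 libraries lay far from the other 3 (the gap to the nearest library as a share of the whole range, above Dixon's 95% critical value, over 42 values checked, of which chance picks about 1 in 20). Gpr55 was high in replicate 2, at 5.21 CPM against 0.326 to 0.471 in the others (a gap of 0.970 of the range). Gprasp1 was high in replicate 4, at 1449 CPM against 1000 to 1074 (0.836). The log2 ratio of Dagla to Abhd6 was high in replicate 4, at 1.81 against -0.53 to -0.27 (0.888). The log2 ratio of Abhd6 to Faah was low in replicate 1, at 0.41 against 2.73 to 2.98 (0.903).

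The other 3 were picked because a ratio had 1 sign in both libraries of the first pair and the opposite sign in both of the second. The log2 ratio of Mgll to Faah was -0.72 and -0.86 in the first pair and 1.73 and 2.77 in the second, a difference of 3.04. The log2 ratio of Cnr1 to Dagla differed by -1.71 between the pairs, and that of Faah to Daglb by -1.45. An exact permutation test of 2 libraries against 2 cannot give a p below 0.333, which is the value for each of the 3, so these differences are descriptions.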

How the results depend on the processing

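Of the 5 ratios above 2 SD, 4 (Cnr1 to Daglb, Cnr1 to Faah, Napepld to Daglb and Napepld to Faah) kept that call under other lengths and pseudocounts and without each replicate. Their number was 4 or 5 under other lengths and pseudocounts and 5 to 8 when replicates were left out in turn, 8 without replicate 1. The size of the 4 ratios moved with the pseudocount. With 0.1 and with 1 in place of 0.5, mean log2 was 3.63 and 2.62 for Cnr1 to Daglb and 3.41 and 2.46 for Cnr1 to Faah. It was 3.40 and 2.41 for Napepld to Daglb and 3.19 and 2.24 for Napepld to Faah. The sign of the small ratio of Faah to Daglb turned without length (log2 -0.0504), with longest transcripts (-0.11) and with exon bases shared with other genes left out (-0.0421, a choice made after seeing the data), and that of Napepld to Dagla without length (-0.26). Without each replicate, log2 ratios ran from -0.0821 to 0.77 for Cnr1 to Dagla, -0.47 to 0.68 for Napepld to Dagla, -0.0456 to 0.75 for Napepld to Abhd6, -0.36 to 0.42 for Dagla to Abhd6 and -0.12 to 0.46 for Faah to Daglb. Mean CPM of the members moved by less than 1 SD with TMM library sizes, without Rn45s and without each replicate, but SDs were wide, and the mean of Faah fell from 8.61 to 5.12 CPM without replicate 1.

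Between the library pairs 176 genes were called, and 1377 by DESeq2, 875 without a filter, 528 at 1 CPM or more in all libraries and 389 to 699 without a replicate, where the lone library of a pair is assumed to vary like the others. The members called were 0, or 0 to 1 without a replicate. The pathway genes called were 1, and 2 by DESeq2, 2 without a filter, 2 at 1 CPM in all libraries and 1 to 2 without a replicate, with Gnai1 the added gene (lower in the second pair). Log2 changes ran from -1.38 to 0.0248 for Cnr1, -0.70 to 1.43 for Daglb, -0.85 to 0.90 for Abhd6, 1.53 to 3.01 for Mgll and -3.11 to -1.67 for Faah without a replicate, and Daglb was at 0.0225 among genes at 1 CPM in all libraries. No paired analysis was possible because there is 1 group. Counts under about 50, as for Faah, Mgll and Daglb in their lowest libraries, limit those values.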
